A study of Arabidopsis thaliana with 18 samples.

Results

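A pair of reporter lines marks different initials of the Arabidopsis thaliana root. FEZ:FEZ-GFP, a fusion of the NAC transcription factor FEZ to GFP under the FEZ promoter, marks the initials shared by the epidermis and the lateral root cap (Epi/LRC), and CYCD6:GFP, driven by the promoter of the D-type cyclin gene CYCD6;1, marks the cortex-endodermis initial (CEI). The comparison described here sets the 3 FEZ:FEZ-GFP libraries directly against the 3 CYCD6:GFP libraries, 6 of the 18 samples of the series and 6 of its 12 libraries from sorted cells. All 6 came from roots of 5-day-old seedlings in the tcx2 mutant background, so that both groups carried a mutation in TESMIN-LIKE CXC2, and no wild-type sorted cells were compared. The crosses used tcx2-2, a knockdown, or tcx2-3, a knockout, and which of these alleles each group carried was not given in the sources used here. Root tips were digested to protoplasts, GFP-positive cells were collected by fluorescence-activated sorting, and the RNA was amplified and sequenced, so a population holds whichever cells were bright for its reporter. The study describes both reporters as reaching neighbouring cells in tcx2 roots, the ground tissue layers for CYCD6:GFP and the columella stem cells for FEZ:FEZ-GFP, so that a population may hold cells other than its initials. The question is which genes differ between the cells bright for these reporters when TCX2 is impaired. The values are FPKM, fragments per kilobase of transcript, scaled to the mapped reads of the library, and a log2 difference below is the mean of log2(FPKM + 1) in FEZ:FEZ-GFP minus that in CYCD6:GFP.

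Epi/LRC initials divide in alternating orientations to renew the lateral root cap and the epidermis. FEZ promotes the division that forms new root cap layers, SOMBRERO (SMB) restrains it and drives root cap maturation, and WEREWOLF (WER) specifies non-hair epidermal cells. The CEI and its daughter divide to form cortex and endodermis under SHORTROOT (SHR) and SCARECROW (SCR), which switch on CYCD6;1. TCX2 belongs to the CXC-domain proteins, relatives of a subunit of the DREAM complex, which in animals represses cell cycle genes.

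The reporter genes themselves were checked first. For FEZ (AT1G26870), FEZ:FEZ-GFP libraries gave 2.90, 0.949 and 0.347 FPKM and CYCD6:GFP libraries gave 0, 0 and 0.0733. The groups did not overlap, and the log2 difference of 1.08 had the smallest p that 20 splits of 6 libraries allow (exact two-sided permutation test, p = 0.1, Benjamini-Hochberg adjusted over 4 reporter genes and TCX2 0.5). The fusion carries FEZ coding sequence, so FEZ reads can come from the transgene. All 3 CYCD6:GFP libraries listed CYCD6;1 (AT4G03270) at 0, and FEZ:FEZ-GFP libraries gave 0, 0.315 and 0, so its transcript did not mark the population named after it. SCR (AT3G54220) was at 0.413, 0.894 and 0.508 in CYCD6:GFP and at 0.214, 0.0474 and 0.503 in FEZ:FEZ-GFP, groups that overlapped. SHR (AT4G37650) was listed at 0 throughout CYCD6:GFP and reached at most 0.278 in FEZ:FEZ-GFP. TCX2 (AT4G14770) ranged from 0.271 to 0.722 in FEZ:FEZ-GFP and from 0.0732 to 0.391 in CYCD6:GFP (exact permutation p = 0.3, adjusted 0.75). None of these 5 genes reached 1 FPKM in 3 libraries. FEZ thus lay higher in FEZ:FEZ-GFP than in CYCD6:GFP, but it did not set FEZ:FEZ-GFP apart from every sorted population. In libraries labelled TMO5:3xGFP, another sorted line, FEZ was at 0.702, 0.917 and 0.408, within the range of FEZ:FEZ-GFP. CYCD6;1 and SCR were too low to check the label CYCD6:GFP.

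The libraries were uneven. A pair of ribosomal RNA genes took 80.2% to 85.9% of the summed FPKM and mitochondrial genes 5.18% to 9.10%. Genes of at least 1 FPKM numbered 6877 to 7457 in FEZ:FEZ-GFP, and 5000, 6280 and 8017 in CYCD6:GFP replicates 1, 2 and 3. Across the 6834 tested genes, correlations were 0.75 to 0.87 within FEZ:FEZ-GFP, 0.73 to 0.80 within CYCD6:GFP and 0.69 to 0.79 between them. The first principal component (36.4% of the variance) set CYCD6:GFP replicate 1 against replicate 3, and the second (24.9%) separated the populations. Read depth is unknown, since only FPKM were used.

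Of 33560 listed genes, 6834 had at least 1 FPKM in at least 3 of the 6 libraries and were tested. In all, 26 genes were higher in FEZ:FEZ-GFP and 1 was higher in CYCD6:GFP (limma, Benjamini-Hochberg adjusted p under 0.05 and more than 2-fold), which is 0.380% and 0.0146% of tested genes. With no adjustment of p, 401 genes (5.87%) and 114 genes (1.67%) passed the same fold. The median log2 difference over all tested genes was 0.03. Values of all 3 FEZ:FEZ-GFP libraries exceeded those of all 3 CYCD6:GFP libraries for 615 genes (9.00%), and the opposite held for 326 (4.77%). Each of the 26 genes had groups that did not overlap, and 6 of them were listed at 0 in every CYCD6:GFP library. A gene could enter the test through 1 group alone: 202 tested genes reached 1 FPKM in all 3 FEZ:FEZ-GFP and in no CYCD6:GFP library, and 55 did the reverse. The count of 26 depended on single libraries, falling to 10 without FEZ:FEZ-GFP replicate 2, to 15 without FEZ:FEZ-GFP replicate 1 and to 17 without CYCD6:GFP replicate 3. With bulk RNA from sorted cells, fewer cells of a type and less RNA per cell cannot be told apart.

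**Figure D1:**
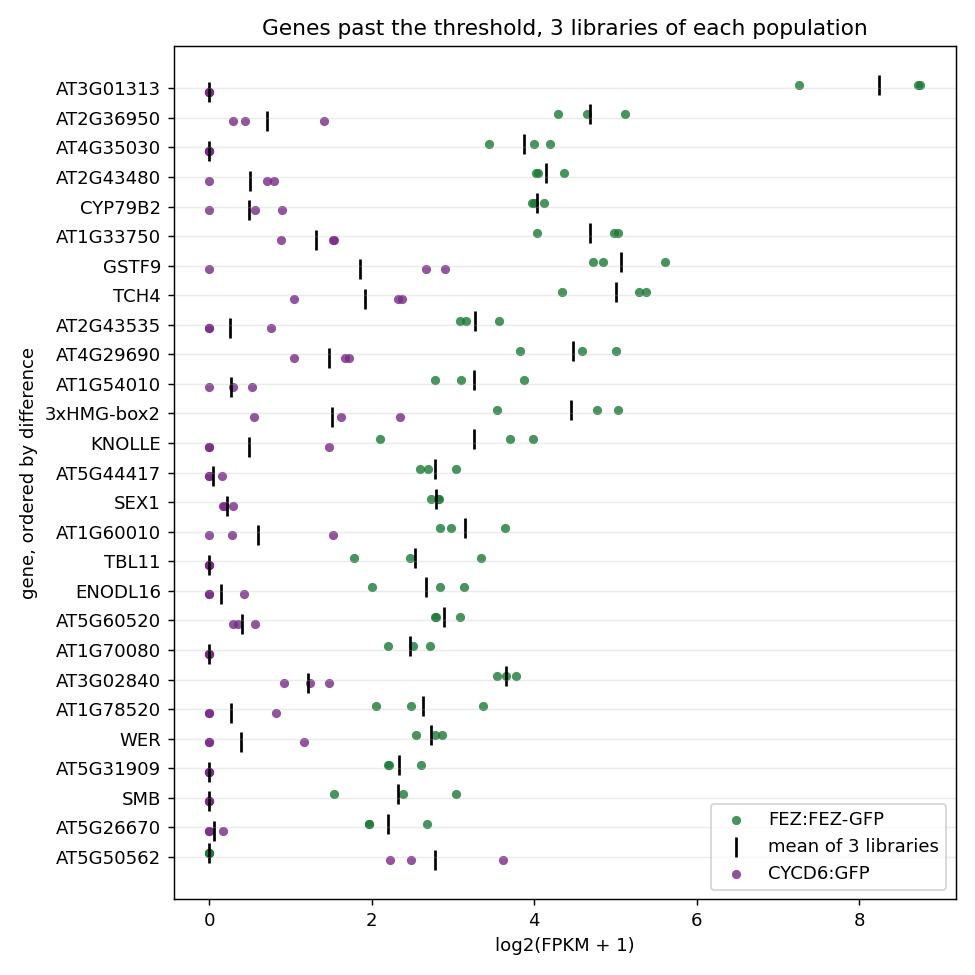
Level of the 27 genes past the threshold in each library, as log2(FPKM + 1) on the x axis. Green points are the 3 FEZ:FEZ-GFP libraries, purple points the 3 CYCD6:GFP libraries and black ticks the means of 3; in all 27 genes the groups do not overlap, and only AT5G50562, in the lowest line, is higher in CYCD6:GFP.

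**Figure D2:**
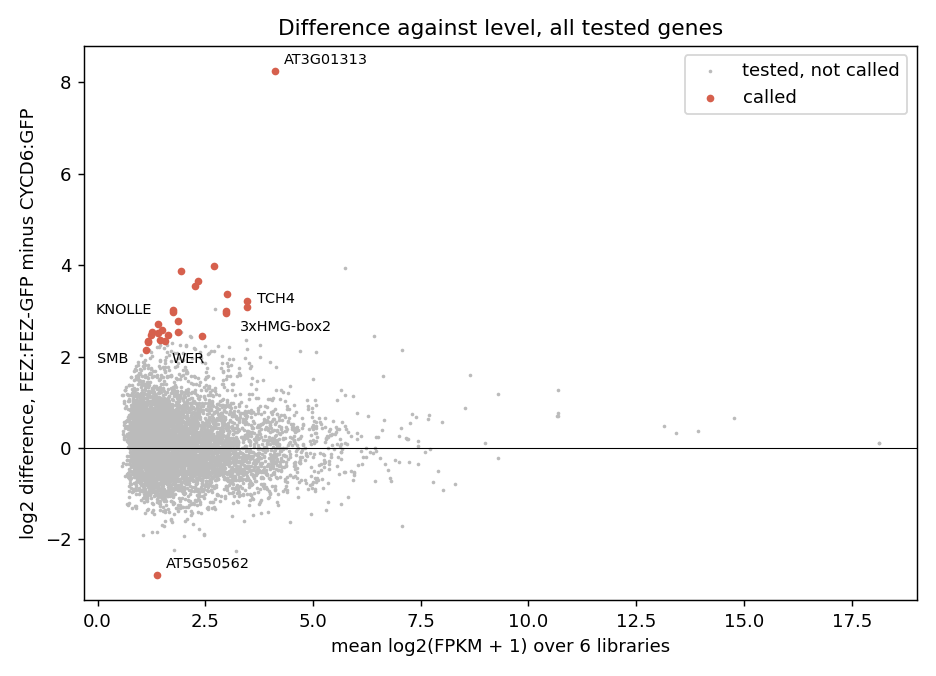
Log2 difference (FEZ:FEZ-GFP minus CYCD6:GFP) on the y axis against the mean log2(FPKM + 1) of the 6 libraries for the 6834 tested genes. Red points are the 27 called genes, grey points the others; 26 red points lie above 0 and 1 lies below.

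Among regulators of epidermis and lateral root cap, SMB and WER were the called genes, both higher in FEZ:FEZ-GFP. The list held 18 genes, 6 were tested, and 2 of these 6 were called, against 0.380% of all tested genes. Both passed the filter through their FEZ:FEZ-GFP values, so nothing is read from this count. SMB (AT1G79580, chromosome 1, 29940803 to 29943713 in TAIR10.1) gave 7.24, 4.24 and 1.91 FPKM in FEZ:FEZ-GFP and 0 in every CYCD6:GFP library (limma adjusted p = 0.0338). WER (AT5G14750, chromosome 5, 4763372 to 4764834) was at 6.27, 5.87 and 4.84 in FEZ:FEZ-GFP and at 0, 1.24 and 0 in CYCD6:GFP, which differed by 2.34 on the log2 scale (SE 0.51, adjusted p = 0.0447 in limma). The groups did not overlap for either gene, but each call held in only 1 of the 6 fits that left out a library. GLABRA2 (GL2, AT1G79840), which acts below WER to suppress hair fate, was at 3.29, 2.51 and 0.608 in FEZ:FEZ-GFP and at 7.06, 4.66 and 2.26 in CYCD6:GFP, a difference of -0.87 that did not pass (adjusted p = 0.790). CAPRICE (CPC), a mobile MYB protein that promotes hair fate, reached 2.73 and 2.92 in the respective groups and was listed at 0 in 1 FEZ:FEZ-GFP and 2 CYCD6:GFP libraries. The SMB relatives BEARSKIN1 (BRN1) and BEARSKIN2 (BRN2), which act late in root cap maturation, were not tested. BRN1 was at 0.456, 2.74 and 0.267 against 1.42, 0 and 0, and BRN2 was above 0 in 1 library, FEZ:FEZ-GFP replicate 1 (0.478). The median difference of the 6 tested members was 0.27, against 0.03 for all genes, and it was 0.11 without CYCD6:GFP replicate 2 and 0.77 without CYCD6:GFP replicate 1. Summed over all 18 genes, the level was 12.4 to 31.4 FPKM in FEZ:FEZ-GFP and 10.4 to 15.1 in CYCD6:GFP, ranges that overlapped.

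Markers of other cell types were mostly sparse in both populations, with root hair genes as the clearest exception. No member of the lists for root cap maturation and cell death (7 genes), ground tissue patterning (13) or cortex (2) passed the filter on low values. Ground tissue genes summed to 1.27 to 3.63 FPKM in FEZ:FEZ-GFP and 2.05 to 4.86 in CYCD6:GFP. Quiescent center and niche genes (7) summed to 12.1 to 15.7 and 0.717 to 4.83, without overlap. Columella and distal stem cell genes (6) summed to 3.25 to 5.83 and 0.738 to 2.29, also without overlap. In libraries labelled TMO5:3xGFP these 2 lists summed to 20.7 to 74.9 and 5.06 to 10.8. Suberin genes (13) summed to 3.16 to 5.29 in FEZ:FEZ-GFP and 5.73 to 8.88 in CYCD6:GFP. KCS20 alone gave 3.14, 2.17 and 1.23 of the former and 5.41, 7.99 and 5.53 of the latter. The order of these sums thus rested on 1 gene and is not read as a trait of the list. The 7 root hair genes, which mark elongating hair cells rather than initials, were all tested and summed to 28.3 to 111 FPKM in FEZ:FEZ-GFP and 33.3 to 94.2 in CYCD6:GFP. By these sums both populations held their transcripts. None of the 7 was called, also without adjustment. Their median difference was -0.04, which was -0.65 without CYCD6:GFP replicate 1 and 0.39 without FEZ:FEZ-GFP replicate 1. LRX1 (AT1G12040), a cell wall extensin of hair cells, was at 3.41, 14.0 and 20.7 against 5.73, 19.8 and 17.5. Single tested members of other lists were the Casparian strip oxidase gene RBOHF (-0.64, adjusted p = 0.868), the cytokinin receptor gene AHK4 of the stele (-0.23, adjusted p = 0.963) and the auxin response factor gene ARF16 of the columella (1.13, adjusted p = 0.479). ARF16 values did not overlap between the groups. PLETHORA3 (PLT3, AT5G10510), a stem cell niche transcription factor, was at 4.63, 6.69 and 7.58 in FEZ:FEZ-GFP and at 0.621, 2.81 and 0.717 in CYCD6:GFP, groups that did not overlap at an adjusted p of 0.197. Among 9 auxin transport genes, 3 were tested and none was called with or without adjustment. PIN4 had the largest difference of these 3 (1.02, adjusted p = 0.670).

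Of 13 listed genes for mitosis and cytokinesis, 3 were tested and 1, KNOLLE, was called, against 0.380% of all tested genes. KNOLLE passed the filter through its FEZ:FEZ-GFP values, so nothing is read from this count. Plant cells complete mitosis by building a cell plate, for which the syntaxin KNOLLE drives membrane fusion. KNOLLE (AT1G08560, chromosome 1, 2709525 to 2711000) had values of 14.9, 12 and 3.31 FPKM in FEZ:FEZ-GFP, against 1.78, 0 and 0 in CYCD6:GFP, and differed by 2.77 on the log2 scale (SE 0.60, adjusted p = 0.0447 in limma). A called gene outside the division lists encodes 3xHMG-box2 (AT4G23800, chromosome 4, 12390167 to 12392710), a protein that associates with mitotic chromosomes. It was at 31.8, 26.3 and 10.7 in FEZ:FEZ-GFP and at 4.10, 0.461 and 2.08 in CYCD6:GFP (log2 difference 2.94, SE 0.61, adjusted p = 0.0341). That is a 10.4-fold ratio of mean FPKM. KNOLLE overlaps NPQ1 on the opposite strand, and 3xHMG-box2 overlaps WRKY53 on the opposite strand, and whether counting used strand was not given in the sources used here. NPQ1 stayed at or under 0.769 FPKM and WRKY53 at or under 4.41 in these 6 libraries. Both calls held in 2 of the 6 fits that left out a library. The relative 3xHMG-box1, looked up after values were seen, was at 9.27, 3.42 and 0.990 against 1.31, 0 and 0.533 (adjusted p = 0.354).

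The other tested genes of mitosis and the cyclins did not pass, and their differences lay on both sides of 0. TOPII (AT3G23890), topoisomerase II, which untangles sister chromatids, was at 8.29, 5.36 and 3.04 in FEZ:FEZ-GFP and at 0.719, 0.337 and 0.0858 in CYCD6:GFP (log2 difference 2.19, SE 0.50, adjusted p = 0.0625). KEULE, which binds KNOLLE, had a difference of -0.53 (adjusted p = 0.904). Of 34 cyclin, CDK and CKS genes, 8 were tested and none was called. At an unadjusted limma p under 0.05 with more than 2-fold, 4 of 8 passed, against 5.87% of all tested genes. All 4 had higher values in FEZ:FEZ-GFP. They reached 1 FPKM in every FEZ:FEZ-GFP and in no CYCD6:GFP library. The filter thus admitted these 4 through FEZ:FEZ-GFP alone and fixed their direction, so nothing is read from that count. CYCB1;2 (AT5G06150), a B-type cyclin gene of G2 and M phase, was at 2.57, 4.83 and 1.24 in FEZ:FEZ-GFP and at 0.266, 0 and 0 in CYCD6:GFP (difference 1.73, adjusted p = 0.0954). CYCB2;3, CYCD3;3 and CDKB2;2 had differences of 1.62, 1.56 and 1.19, with adjusted p of 0.0960, 0.105 and 0.206. CDKA;1, the CDK present through the whole cycle, looked up after values were seen, had -0.62 (adjusted p = 0.867). CYCB1;1 was not tested, with 1.71, 0.256 and 0.579 FPKM against 0.129, 0.150 and 0. The median of the 8 tested genes was 1.01. It rested on low values, and it was 0.30 with a pseudocount of 5 and 2.75 with one of 0.1. Members listed at 0 numbered 6, 7 and 11 of 34 in FEZ:FEZ-GFP and 15, 23 and 24 in CYCD6:GFP. Of all 33560 listed genes, 18043, 17808 and 16604 were above 0 in FEZ:FEZ-GFP and 17712, 15575 and 14878 in CYCD6:GFP. Fewer genes of any kind were thus seen in CYCD6:GFP replicates 2 and 3, and nothing is read from the members at 0.

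Many plant genes of G2 and M phase carry the M-specific activator element, whose core AACGG is bound by MYB3R proteins. The 300 bases before the annotated start of KNOLLE, 3xHMG-box2 and CYCB1;2 are shown because they are the called genes and the B-type cyclin gene described above, with each core on either strand (AACGG or CCGTT) in capitals, in RefSeq TAIR10.1 and read 5′ to 3′ on the gene's strand. They lie at chr1:2711001-2711300 (minus strand), chr4:12389867-12390166 (plus) and chr5:1861704-1862003 (minus).
KNOLLE: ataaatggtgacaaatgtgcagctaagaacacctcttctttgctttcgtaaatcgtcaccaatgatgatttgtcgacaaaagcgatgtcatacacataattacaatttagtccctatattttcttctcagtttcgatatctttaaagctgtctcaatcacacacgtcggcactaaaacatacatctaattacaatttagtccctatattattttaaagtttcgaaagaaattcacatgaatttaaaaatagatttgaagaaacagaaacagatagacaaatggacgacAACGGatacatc
3xHMG-box2: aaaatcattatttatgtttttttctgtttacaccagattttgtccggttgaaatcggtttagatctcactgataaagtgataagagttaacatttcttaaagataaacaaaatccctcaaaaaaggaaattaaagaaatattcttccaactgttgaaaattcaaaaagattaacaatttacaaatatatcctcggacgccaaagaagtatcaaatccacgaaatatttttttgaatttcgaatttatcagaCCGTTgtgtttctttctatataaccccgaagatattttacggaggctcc
CYCB1;2: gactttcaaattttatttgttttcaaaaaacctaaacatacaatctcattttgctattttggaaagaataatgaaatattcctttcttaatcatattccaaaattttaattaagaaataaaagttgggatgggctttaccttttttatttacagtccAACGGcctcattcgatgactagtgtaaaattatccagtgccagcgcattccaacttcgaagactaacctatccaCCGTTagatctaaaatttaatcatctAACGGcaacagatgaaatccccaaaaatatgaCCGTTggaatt
The core occurs once before KNOLLE and before 3xHMG-box2 and 4 times before CYCB1;2. It also occurs in 23.4% of such windows of all nuclear protein-coding genes, in 25.7% of those of tested genes and in 8 of 23 windows of protein-coding genes called higher in FEZ:FEZ-GFP. A match of 5 letters is a description of the window and was not tested as a binding site.

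Histone genes, whose transcripts accumulate in S phase, lay higher in FEZ:FEZ-GFP in 29 of 30 tested members, against 52.3% of all tested genes, although none of the 30 was called (13 passed at an unadjusted p under 0.05 with more than 2-fold, against 5.87% of all tested genes). Their median difference was 1.00, and it was 0.51 with a pseudocount of 5 and 1.52 with one of 0.1. In 13 of 30 the groups did not overlap with FEZ:FEZ-GFP above, against 9.00% of all tested genes, and the reverse order occurred in none. A member could pass the filter through FEZ:FEZ-GFP values alone, which fixes its direction. Such members were not counted apart, so these counts are a description only. The histone H3 gene AT5G65360 had 44.7, 18.5 and 13.7 FPKM in FEZ:FEZ-GFP against 1.46, 10.7 and 3.99 in CYCD6:GFP (difference 2.17, SE 0.65, adjusted p = 0.166). H2AXA was at 11.4, 6.69 and 3.76 against 0.517, 2.68 and 0.499 (difference 1.92, adjusted p = 0.152). Summed over 46 genes, histone levels were 341, 199 and 130 FPKM in FEZ:FEZ-GFP and 63.7, 83.7 and 101 in CYCD6:GFP, without overlap. Histone genes exist as near-identical copies, so reads may be divided among them and single values are uncertain. Of 18 DNA replication genes, 7 were tested and 6 lay higher in FEZ:FEZ-GFP, against 52.3% of all tested genes. None was called, and 1 passed the unadjusted threshold, against 5.87% of all tested genes. In none of the 7 were the groups without overlap, against 9.00% of all tested genes with FEZ:FEZ-GFP above. Their median of 0.66 was 0.31 without FEZ:FEZ-GFP replicate 1. TSO2, a subunit of the enzyme that makes deoxynucleotides, had the largest difference (1.17, adjusted p = 0.561), at 5.66, 2.04 and 0.991 against 0.423, 1.51 and 0, groups that overlapped.

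**Figure D3:**
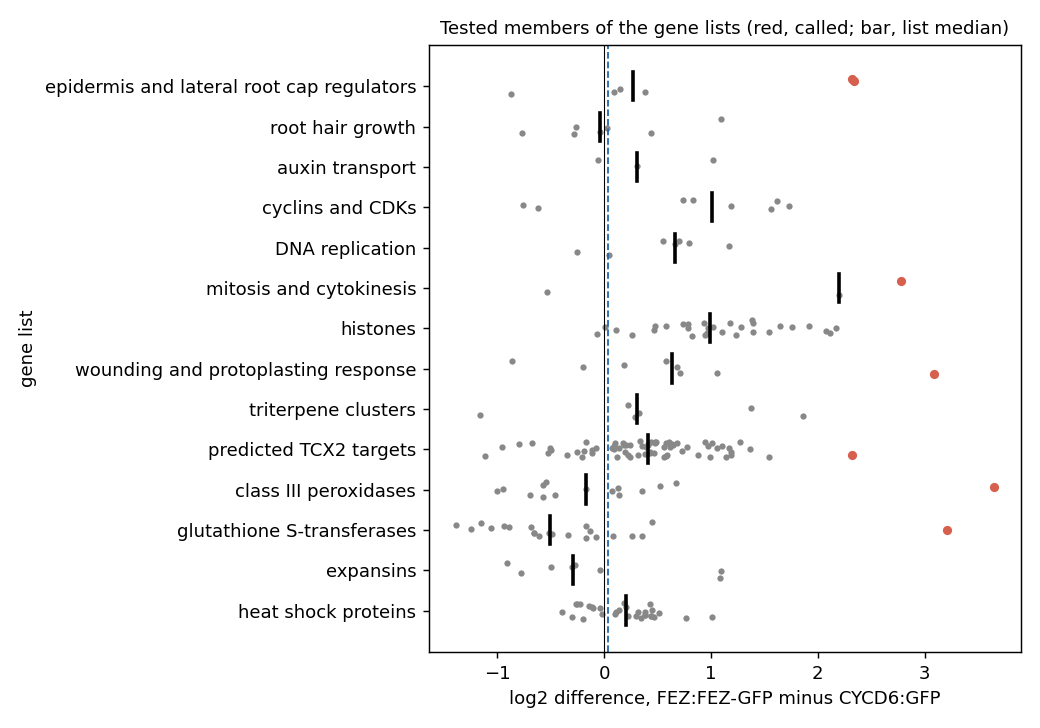
Log2 difference (FEZ:FEZ-GFP minus CYCD6:GFP) of each tested member of 14 gene lists. Red points are called genes, grey points are not called, the black bar is the median of a list and the dashed line is the median of all tested genes (0.03); 29 of 30 histone genes lie above 0, and glutathione S-transferases lie mostly below 0 except for GSTF9.

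**Figure D4:**
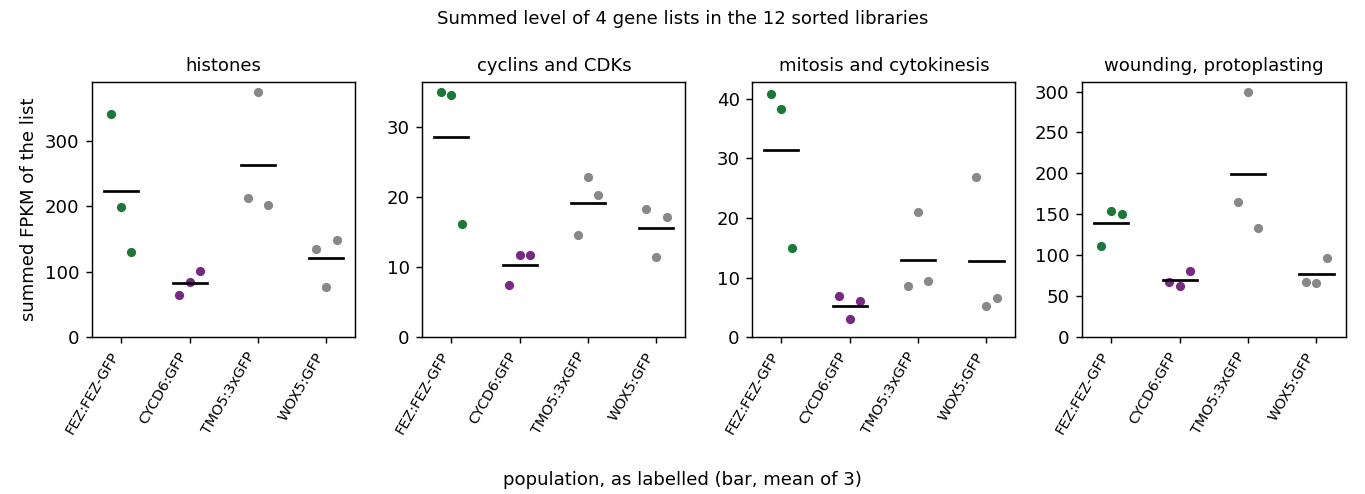
Summed FPKM of 4 gene lists in each of the 12 sorted libraries, by labelled population (points, libraries; bars, means of 3; y axes start at 0). The 3 CYCD6:GFP libraries lie below the 3 FEZ:FEZ-GFP libraries in all 4 lists. Within FEZ:FEZ-GFP the wounding and protoplasting list is lowest in replicate 1 (112 FPKM), where the histone list is highest (341). In the other populations the same replicate is highest in both lists. These are CYCD6:GFP replicate 3 (80.7 and 101), TMO5:3xGFP replicate 2 (299 and 373) and WOX5:GFP replicate 3 (96.5 and 149). A link between the lists was not tested.

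Of the other called genes, 3 encode enzymes of specialised metabolism. CYP79B2 (AT4G39950), which converts tryptophan to the precursor of indole glucosinolates and camalexin, had 16.5, 15 and 14.8 FPKM in FEZ:FEZ-GFP against 0.483, 0.865 and 0 in CYCD6:GFP (difference 3.55, SE 0.52, adjusted p = 0.00174). Its close relative CYP79B3, looked up after values were seen, was low in both, at most 1.25 and 2.75. The terpenoid cyclase gene AT1G33750 was at 30.7, 31.7 and 15.4 against 1.88, 1.89 and 0.840 (difference 3.37, adjusted p = 0.00695), a 16.9-fold ratio of means. Another member of that family, AT1G70080, was at 5.56, 4.68 and 3.62 and at 0 throughout CYCD6:GFP (adjusted p = 0.0136). Triterpene cluster genes, a separate list of 6, were all tested and none was called. Unadjusted, 2 passed, both with higher values in FEZ:FEZ-GFP, against 5.87% of all tested genes. MRN1, 1 of these 2, reached 1 FPKM in no CYCD6:GFP library, so the filter fixed its direction. CYP705A12 and MRN1, of the marneral cluster, had differences of 1.86 and 1.37 (adjusted p = 0.136 and 0.122), and THAS1, the thalianol synthase gene, had -1.16 (adjusted p = 0.645).

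Among redox enzymes, 1 peroxidase gene and 1 glutathione S-transferase gene were called, against 0.380% of all tested genes. Nothing is read from these counts. The class III peroxidase gene AT2G43480 was at 19.7, 15.2 and 15.6 against 0.743, 0 and 0.636 (difference 3.64, SE 0.52, adjusted p = 0.00161), and it overlaps AT2G43490 on the opposite strand. The other 14 of 15 tested peroxidase genes were not called, and the median of the 15 was -0.17, which was -0.59 without CYCD6:GFP replicate 1 and -0.047 without CYCD6:GFP replicate 3. GSTF9 (AT2G30860), a glutathione S-transferase gene, was at 47.8, 27.9 and 25.5 against 6.48, 5.36 and 0 (difference 3.21, SE 0.69, adjusted p = 0.0447). Its neighbour GSTF10 was at 71.2, 63.3 and 63.9 against 34.9, 74.5 and 129, a difference of -0.07 with overlapping groups. Among 22 tested glutathione S-transferases, 5 lay higher in FEZ:FEZ-GFP, against 52.3% of all tested genes. Their median of -0.50 rested on 1 library, being -0.0062 without CYCD6:GFP replicate 3. GSTU14, GSTF8 and GSTU22 had differences of -1.39, -1.24 and -1.15, none past the threshold (adjusted p = 0.592 to 0.670). In GSTF8 and GSTU14 the highest value was in CYCD6:GFP replicate 3.

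SEX1 (AT1G10760), the glucan water dikinase that phosphorylates starch for breakdown, had 6.06, 6.11 and 5.63 FPKM in FEZ:FEZ-GFP against 0.137, 0.124 and 0.227 in CYCD6:GFP. The difference of 2.58 (SE 0.47, adjusted p = 0.0137) corresponds to a 36.4-fold ratio of means, with almost no spread within groups. ISA3, an isoamylase of the same pathway that was looked up after values were seen, was at 5.00, 4.95 and 2.24 against 0.486, 0 and 0 (adjusted p = 0.0550). Further called genes encode proteins of the cell wall or its surface. TBL11, of a family of wall polysaccharide acetyltransferases, was at 9.15, 2.45 and 4.57 and listed at 0 in CYCD6:GFP (adjusted p = 0.0198). ENODL16, an early nodulin-like protein, and the pectin acetylesterase gene AT5G26670 had differences of 2.52 and 2.15 (adjusted p = 0.0198 and 0.0341). AT1G78520, with a carbohydrate-binding X8 domain, had 2.36 (adjusted p = 0.0447).

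The heavy metal transport and detoxification family gene AT2G36950 (chromosome 2, 15514923 to 15517002) was at 24.1, 33.7 and 18.7 against 1.66, 0.225 and 0.361, a 34.1-fold ratio of means (difference 3.97, SE 0.55, adjusted p = 0.00136). The protein kinase gene AT4G35030 was at 17.2, 9.92 and 15 and at 0 throughout CYCD6:GFP (adjusted p = 0.000782). It overlaps AT4G35025 on the opposite strand. The knottin gene AT2G43535, of a family of small cysteine-rich peptides, was at 10.9, 7.92 and 7.51 against 0, 0 and 0.691 (difference 3.02, adjusted p = 0.00755). These genes, with CYP79B2, AT1G33750, AT2G43480, the pseudogene AT5G44417 and the snoRNA gene AT3G01313, were the 8 calls that held in all 6 fits leaving out a library. The other called genes were AT4G29690 (alkaline phosphatase-like), AT1G54010 (GDSL lipase-like), AT1G60010, AT3G02840 and AT5G60520, with differences of 2.44 to 3.00, and the pseudogene AT5G31909, at 3.60, 5.10 and 3.63 and at 0 throughout CYCD6:GFP (adjusted p = 0.0165). AT3G02840 and AT5G60520 also overlap genes on the opposite strand. AT1G54010 shares 89.2% of 1461 aligned bases with its neighbour GLL22, so reads may be divided between them.

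The largest separation was in a small nucleolar RNA gene, AT3G01313 (chr3:104687-104769, minus strand). The 3 FEZ:FEZ-GFP libraries held 421, 152 and 429 FPKM, and every CYCD6:GFP library listed it at 0 (limma adjusted p = 6.59e-08). Its sequence in RefSeq TAIR10.1 is shown because its length bears on the value, with matches to the C box (TGATGA) and the D box (CTGA), the motifs of the snoRNA class that guides ribose methylation, in capitals.
AT3G01313: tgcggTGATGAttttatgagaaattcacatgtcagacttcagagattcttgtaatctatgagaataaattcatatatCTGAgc
The matches start at bases 6 and 78 of 83. At 83 bases the gene is shorter than a 100-base read, and FPKM of so short a gene depends strongly on how few fragments were assigned to it. It was also listed at 0 in 4 of the 6 libraries of the other sorted populations and at 341 and 149 in the remaining 2. With genes under 200 bases left out, an alternative chosen after seeing the data, 47 genes were called higher in FEZ:FEZ-GFP and none higher in CYCD6:GFP, 25 of the 26 among them. TOPII was among the genes added.

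Of 10 genes for wounding and protoplasting, 8 were tested and 1, TCH4, was called, against 0.380% of all tested genes. TCH4 (AT5G57560), a touch-induced xyloglucan endotransglucosylase gene, had 19.3, 40.4 and 38.1 FPKM in FEZ:FEZ-GFP against 1.07, 4 and 4.20 in CYCD6:GFP (difference 3.09, SE 0.59, adjusted p = 0.0177). The other 7 tested members did not pass, with or without adjustment. ZAT12, a stress-induced zinc finger gene, was at 59.1, 73.8 and 68.8 against 33.9, 27.2 and 34.3 (difference 1.06, adjusted p = 0.672). WRKY33, a pathogen response gene, lay the other way, at 5.52, 5.57 and 5.47 against 7.88, 11.9 and 13.6 (difference -0.87, adjusted p = 0.776). The list summed to 112, 154 and 151 FPKM in FEZ:FEZ-GFP and to 67.5, 62.5 and 80.7 in CYCD6:GFP, without overlap, and 1 or 2 of its 10 members were listed at 0 in each library. The part of this response in the other differences was not tested.

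Only AT5G50562 was called higher in CYCD6:GFP. The CYCD6:GFP libraries held 3.70, 4.62 and 11.2 FPKM, and every FEZ:FEZ-GFP library listed it at 0 (limma adjusted p = 0.0132). The gene is 174 bases long (chromosome 5, 20580269 to 20580442, minus strand), lies within AT5G50565 on the opposite strand, and has an identical second copy at 20613611 to 20613784, within AT5G50665. Its reads can therefore not be told apart from those of its partners, and the value is uncertain. AT5G50665 was at 1.14, 0.472 and 5.86 against 0.782, 2.69 and 1.30 (difference 0.17, adjusted p = 0.967), and AT5G50565, not tested, was at 0.450, 0.476 and 1.57 against 0.720, 0.831 and 3.20.

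The next genes with non-overlapping values higher in CYCD6:GFP did not pass the threshold. The RING finger gene AT1G02610 was at 1.63, 2.79 and 5.71 against 0.265, 0 and 0 (adjusted p = 0.0673), and AT4G30660, of the low temperature and salt responsive family, was at 4.33, 4.55 and 12.8 against 0.909, 1.06 and 0 (adjusted p = 0.0707). The proline-rich protein gene AT5G12880 was the tightest of these, at 9.54, 9.77 and 9.84 against 1.31, 2.55 and 2.00 (difference -1.88, SE 0.52, adjusted p = 0.122). DGR2, a DUF642 cell wall protein gene, was at 9.23, 5.04 and 12.7 against 2.99, 2.21 and 0.702 (adjusted p = 0.205). SPP1, a sucrose-phosphatase gene, was at 2.89, 6.05 and 16.7 against 2.40, 1.32 and 0.142 (adjusted p = 0.209). The others, AT5G40690, AT1G49030, AT5G53940, AT3G46690, AT1G62370 and AT2G43890, had differences from -1.83 to -1.21 at adjusted p of 0.105 to 0.210. KCS20, an elongase gene of suberin and wax synthesis and the 1 tested member of 13 suberin genes, was at 5.41, 7.99 and 5.53 against 3.14, 2.17 and 1.23 (difference -1.23, adjusted p = 0.489). Expansin genes, whose products loosen cell walls, had a median of -0.29 over 8 tested members with none called (also none unadjusted), and it was 0.01 without FEZ:FEZ-GFP replicate 3 and -0.61 without CYCD6:GFP replicate 1.

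Predicted direct targets of TCX2, as drawn from the study's network, lay higher by a smaller margin that rested on 1 library. Of 91 genes, 69 were tested and 54 of these lay higher in FEZ:FEZ-GFP, against 52.3% of all tested genes. The median was 0.41, and SMB was the 1 call, against 0.380% of all tested genes. SMB passed the filter through its FEZ:FEZ-GFP values, so nothing is read from that call as a count. Without CYCD6:GFP replicate 1 the median was -0.19. Ribosomal protein genes, of which several are among these targets, had a median of 0.35 over 201 tested genes, which was -0.23 without that library. None of the 201 was called. Unadjusted, 9 passed with higher values in FEZ:FEZ-GFP and 1 with higher values in CYCD6:GFP, against 5.87% and 1.67% of all tested genes. Summed ribosomal protein levels were 3977, 2658 and 1848 FPKM in FEZ:FEZ-GFP and 769, 2512 and 3996 in CYCD6:GFP, so the groups overlapped. Heat shock protein genes had a median of 0.20 over 31 tested genes, which was -0.18 without the same library, and none was called with or without adjustment. Mitochondrial genome genes had a median of 0.51, with 91 of 102 tested genes above 0, and plastid genome genes one of 0.45, with 59 of 70 above 0. Over all tested genes, 52.3% lay above 0. None of these organelle genes was called. Unadjusted, 11 mitochondrial and 2 plastid genes passed with higher values in FEZ:FEZ-GFP, against 5.87% of all tested genes, and scaling to the nuclear sum lowered the medians to 0.30 and 0.29.

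Values of the called genes in the remaining sorted populations are given beside those above. In the libraries of the other sorted lines, labelled TMO5:3xGFP (xylem) and WOX5:GFP (quiescent center), the reporter genes went against the labels. The 3 libraries labelled WOX5:GFP listed WOX5 at 0, and it was at 1.49, 0.997 and 0 in those labelled TMO5:3xGFP, whereas TMO5 was at 3.75, 0.391 and 0.782 in the former and at 0, 0.206 and 0 in the latter. Those libraries are therefore named only by their labels, and no direction is drawn from them. For 23 of the 26 genes all 3 libraries labelled TMO5:3xGFP lay above all 3 CYCD6:GFP libraries, and for 2 of 26 those labelled WOX5:GFP did, against 11.0% and 5.00% of all tested genes. The 26 genes were chosen for low values in CYCD6:GFP, and 18 of them were at 0 in at least 1 of its libraries, so nothing is read from these counts. SMB was at 3.19, 4.98 and 3.19, CYP79B2 at 16.6, 25.7 and 5.89 and SEX1 at 5.10, 11.1 and 3.50 in the libraries labelled TMO5:3xGFP. KNOLLE was at 0.514, 4.72 and 0.750 there and at 6, 1.80 and 0.333 in those labelled WOX5:GFP. For 7 of the 26 genes all 3 FEZ:FEZ-GFP values exceeded the 9 other sorted libraries, against 0.805% of all tested genes. These 7 were AT4G35030, AT2G43480, AT1G33750, AT1G70080, AT5G44417, AT5G60520 and 3xHMG-box2. All 26 already lay above every CYCD6:GFP library, so part of this comparison was fixed by the choice of genes. Nothing is read from that count either. Summed mitosis and cytokinesis genes reached 40.9, 38.3 and 14.9 FPKM in FEZ:FEZ-GFP, against 6.85, 3.04 and 5.99 in CYCD6:GFP, at 8.60 to 21.0 in libraries labelled TMO5:3xGFP and at 5.18 to 26.8 in those labelled WOX5:GFP. Histone sums of the libraries labelled TMO5:3xGFP (201 to 373) lay in the range of FEZ:FEZ-GFP and above it.

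**Figure D5:**
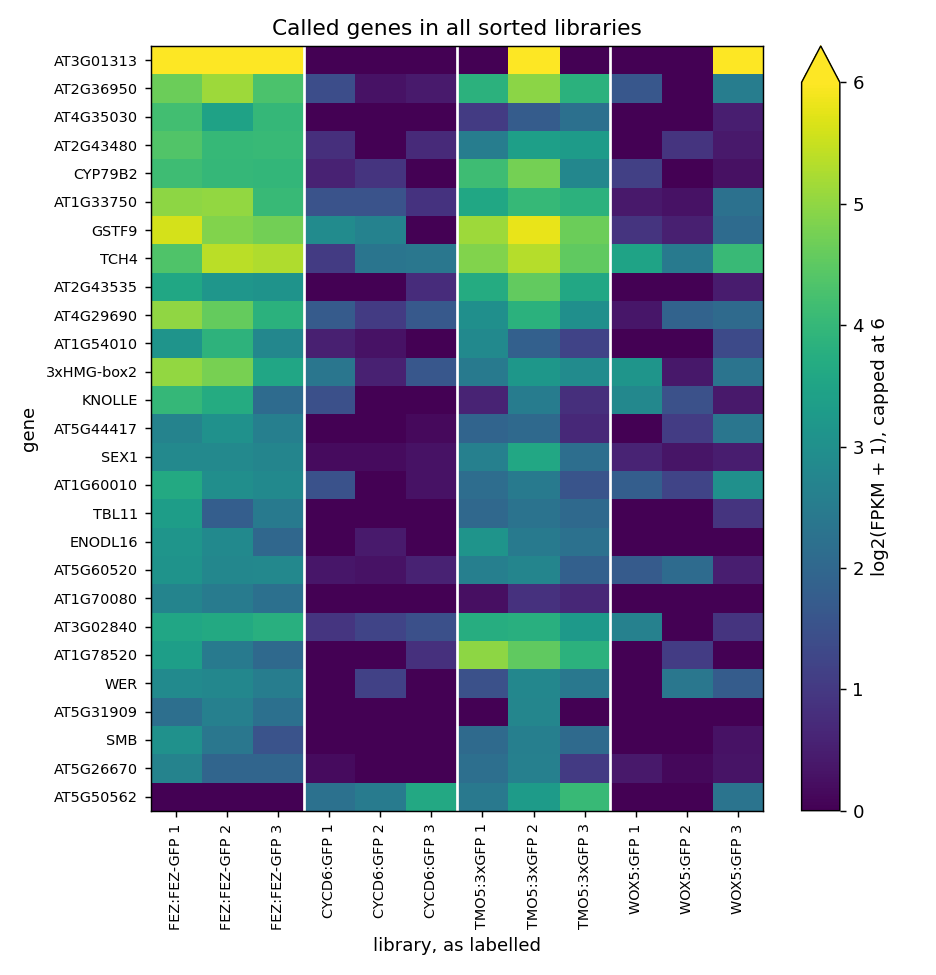
Level of the 27 called genes, as log2(FPKM + 1) capped at 6, in the 12 sorted libraries named by their labels (columns, 3 for each population). Colour runs from dark (0) to yellow (6 or more); 23 of the 26 genes higher in FEZ:FEZ-GFP are also above every CYCD6:GFP library in all 3 libraries labelled TMO5:3xGFP, against 11.0% of all tested genes; the 26 were chosen for low values in CYCD6:GFP.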

How the data were processed

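RNA was measured in GFP-positive protoplasts sorted from tcx2 roots, with 3 replicates per reporter line that the study describes as biological replicates. The deposited values are FPKM per gene, made by the authors from 100-base single-end reads of an amplified library. The labels name Bowtie2 and Cufflinks, with TAIR10 as the build, and the study's methods name Bowtie, Tuxedo and Rsubread; versions were not given in the sources used here. Whole reads could not be recovered from the FPKM, so depth and counting error are unknown. The study's own test of counts, PoissonSeq, was therefore not used.

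Genes with at least 1 FPKM in at least 3 of the 6 libraries were compared on log2(FPKM + 1) with limma 3.58.1 (R 4.3.3, intensity trend, two-sided, no replicate block), and p-values were Benjamini-Hochberg adjusted over all 6834 genes. A gene was called at an adjusted p under 0.05 and more than 2-fold. The scale understates changes of low genes, and no fold is given against a group listed at 0. Fits were tested on simulated data. Reporter genes and TCX2 were compared by exact permutation. Genes were named if called, if among the 12 with the largest difference in a direction (places left over went to the smallest p with non-overlapping values), if in a fixed set of markers, or if among the 4 tested members of a list with the largest moderated t; other names were chosen after values were seen and are so marked, except neighbours and overlapping genes. Lists are described and not tested. Members and lists were chosen with earlier results of these data known. Of 33560 gene IDs, 32826 matched RefSeq TAIR10.1, which gave names, positions and sequences, and similar transcripts were sought with BLAST 2.17.0. Alternatives varied pseudocount, filter, scaling, variance model, replicate block and libraries. The whole root tips were not analysed here.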

Additional observations from a re-analysis of the deposited data

How the results depend on the processing

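No called gene changed direction under any alternative run: 343 of 501 refits of the 27 called genes kept the call and 158 lost it, and 60 refits of the other named genes gained one. Genes higher in FEZ:FEZ-GFP numbered 26, and 12 with a pseudocount of 0.1, 12 with one of 5, 1 with no filter, 11 with at least 5 FPKM in 3 libraries, 81 with all 12 sorted libraries sharing the spread, 890 with array weights (which gave CYCD6:GFP replicate 2 a weight of 13.4 against 0.229 to 2.30 for the others) and 47 without genes under 200 bases. Leaving out libraries gave 10 to 31. The 1 gene higher in CYCD6:GFP became 0 with a pseudocount of 5, with no filter, with at least 5 FPKM or without genes under 200 bases, 3 with median centring, quantile normalization or scaling to the nuclear sum, 2 with all 12 libraries and 280 with array weights. Leaving out libraries gave 0 to 3: 3 without FEZ:FEZ-GFP replicate 1, 0 without FEZ:FEZ-GFP replicate 2 and 2 without CYCD6:GFP replicate 1. The median of all tested genes ranged from -0.21 without CYCD6:GFP replicate 1 to 0.29 without CYCD6:GFP replicate 3. Of 317 refits of list medians, 20 moved by more than the spread between libraries. The cause of these shifts was not tested. Same-numbered libraries shared only a number (correlations of their deviations -0.0497, -0.0021 and 0.0435), and with the replicate block 19 genes were higher in FEZ:FEZ-GFP and 1 in CYCD6:GFP. Unknown depth limits every value near 0.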
